A study of Sus scrofa with 28 samples.

Results

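The chromatin modifiers and corepressors of loin muscle were represented by 47 of the 5226 probe sets of the array table, for 41 genes. They were chosen by symbol, from families that remodel nucleosomes, add, read or remove acetyl and methyl groups, repress through deacetylase complexes or belong to Mediator. The names of 27 probe sets came from the study's list of regulatory factors, 17 from the annotation of the array and 3 (SIRT3, SIRT1 and MLLT3) from the study's list of genes that differed between genetic types. That list was chosen on these same arrays, so the differences of its 3 members are not independent evidence of their direction. MLLT3 and MLLT11 entered because their names begin with MLL, and they are no methyltransferases. The annotation of the array gives the SMARCC1 probe set the name TAPBP, so its values are uncertain in identity, and 1 further probe set shared by EZH2 and another gene was not counted. For 16 other members named by the study the annotation gives no name, so their identity rests on the study's naming alone. SMARCA5 had 3 probe sets, and ARID1B, CHD4, ARID4B and MED4 had 2 each.

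The study asked how the muscle transcriptome differs between the genetic types used in Iberian pig production. RNA from the longissimus dorsi of 28 male piglets aged 28 days was hybridized to an Affymetrix porcine array, 1 array per piglet. The crossbred group (DU×IB) held 14 piglets of Iberian sows and Duroc boars, and the purebred group (IB) held 14 piglets whose parents were both Iberian. No piglet was treated and no gene was altered, and both groups shared the Iberian maternal breed. The crossbred piglets came from fewer litters than the purebred piglets, the labels do not give the litter, and littermates were treated as independent. Levels are GCRMA values on the log2 scale, so a difference of 1 is a doubling, and a level of 1 probe set cannot be set against that of another.

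DNA in the nucleus is wound on histones, and its use depends on enzymes that place or remove chemical groups on the histone tails, on ATP-driven motors that slide nucleosomes, and on complexes such as NuRD, Sin3 and NCoR that bring deacetylases to repressed genes. Sirtuins are deacetylases that consume NAD, which ties their activity to the energy state of the cell. In muscle, SIRT1 is known to restrain the myogenic program and to act on regulators of mitochondrial genes, whereas SIRT3 acts mainly on enzymes inside mitochondria.

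The arrays fell into 2 hybridization series, recovered from the spike-in controls, a larger one of 16 arrays (8 of each genetic type) and a smaller one of 12 (6 of each). The series effect was far larger than that of genetic type. It passed an adjusted p of 0.10 in 43 of the 47 members and in 4185 of all 5226 probe sets (80.1%), so the comparison of genetic types had the series as a block (limma, Benjamini-Hochberg over all probe sets). In that fit 145 probe sets passed an adjusted p of 0.10, with 108 higher and 37 lower in DU×IB piglets. The skeletal muscle markers chosen for the check (such as ACTA1, CKM, TTN, DES and the adult myosin heavy chains) had no named probe set in the table, which keeps only probe sets that varied between arrays and does hold other contractile genes. The myogenic factor MYOD1 had levels of 7.54 ± 0.92 in DU×IB and 7.79 ± 0.72 in IB piglets (SD, n = 14 each).

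Among the 47 members, SIRT3 alone passed the adjusted p of 0.10 (higher in DU×IB), beside 2.77% of all probe sets in either direction, 2.07% higher in DU×IB and 0.708% lower. At an unadjusted p of 0.05, 5 members passed, with positive differences (DU×IB minus IB) for SIRT3, SMARCAD1 and HDAC1 and negative ones for MLLT3 and SIRT1. These were 10.6% of the members, against 13.8% of all probe sets. Outside the study's own list, none of 44 members passed the adjusted threshold and 2 (4.5%) passed the unadjusted one. That list was chosen on these same arrays, so leaving it out takes away the only called member. The shares over all probe sets outside the list were not counted, so these counts are a description. The median difference was 0.029 over the members and 0.016 over all probe sets, with 27 members above 0 and 20 below. The median size of the difference was 0.10 over the members, against 0.16 over all probe sets. The 95% interval of the difference lay within a 1.5-fold change in either direction for 34 members, and within a 2-fold change for 45. These intervals treat littermates as independent, and the same counts were not made over all probe sets. The plot of the differences by role shows SIRT3 apart from the other members.

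**Figure D1:**
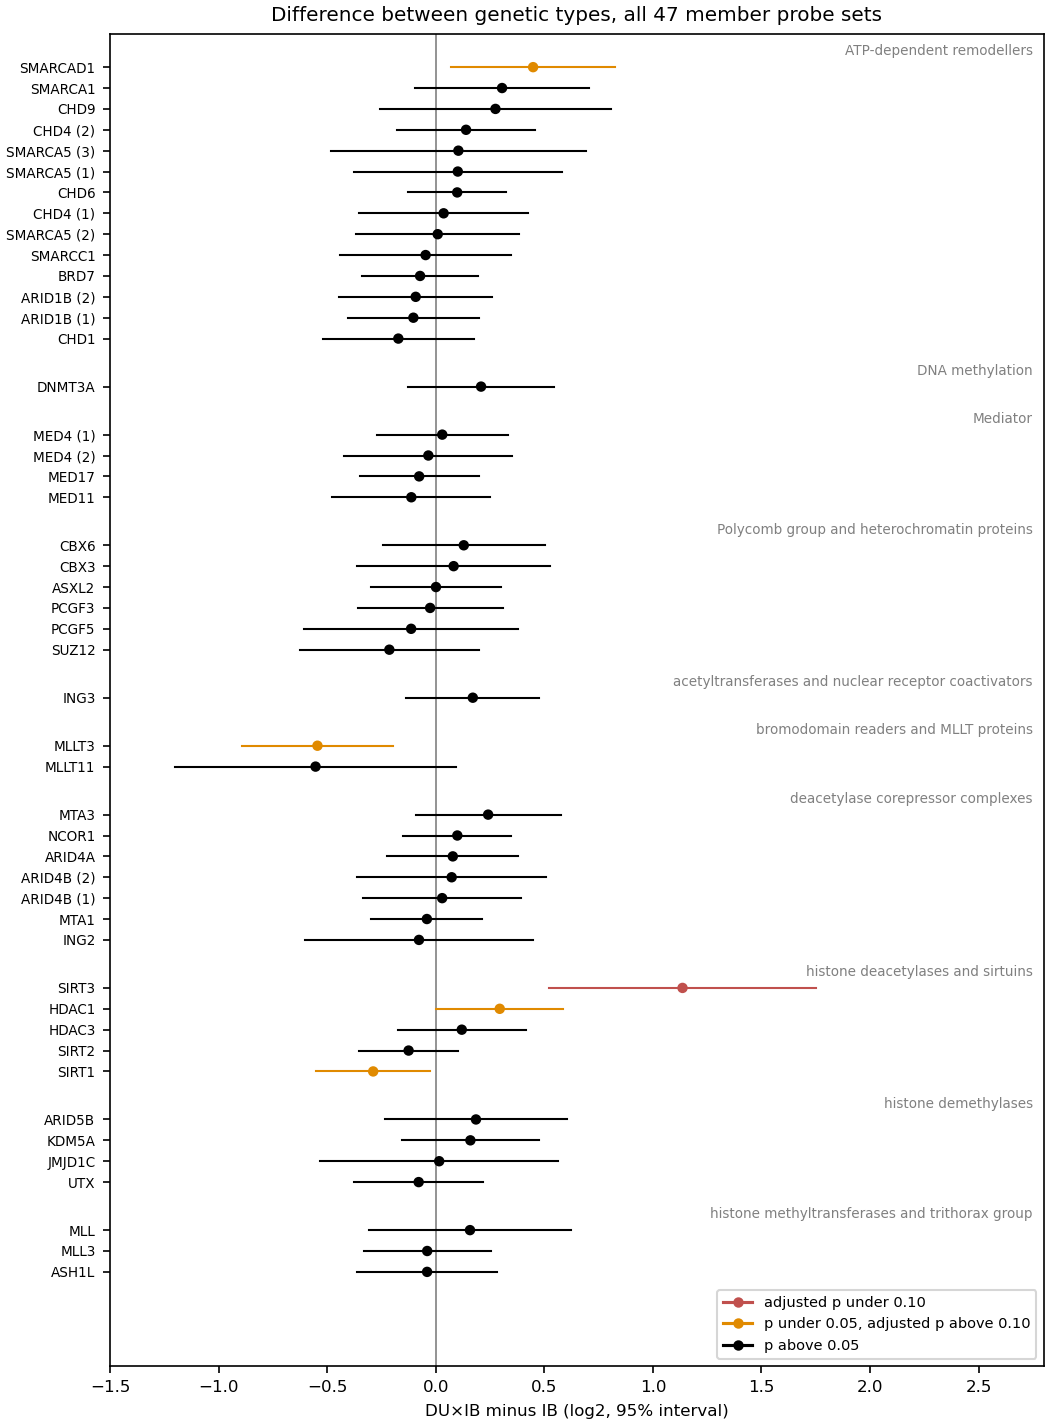
Difference between genetic types (DU×IB minus IB, log2, x axis) of the 47 member probe sets, grouped by role, with points for the estimate and lines for the 95% interval of the limma fit with series as a block (n = 14 piglets each). Numbers in brackets tell apart the probe sets of a gene. SIRT3 lies at 1.14, the MLLT proteins near -0.55, and most other members close to 0.

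Among the 5 deacetylases, SIRT3 was higher in the crossbred piglets, and SIRT1, SIRT2, HDAC1 and HDAC3 did not pass the adjusted threshold. SIRT3, the mitochondrial NAD-dependent deacetylase, had a lowest, median and highest level of 5.69, 7.48 and 8.14 in DU×IB piglets, against 4.24, 5.80 and 7.92 in IB piglets. The ranges overlapped over all arrays, but within its own series each of the 14 DU×IB piglets lay above the median of the IB piglets. In the larger series, 6 of the 8 IB piglets lay below all DU×IB piglets and 1 lay above them. In the smaller series, 5 of the 6 IB piglets lay below all DU×IB piglets.

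Mean levels of SIRT3 were 7.04 ± 0.85 in DU×IB and 5.90 ± 1.35 in IB piglets (SD, n = 14 each), a 2.20-fold difference (log2 1.14, SE 0.30, limma adjusted p = 0.0462). The difference was 1.27 in the larger series and 0.96 in the smaller one. With no term for the series the adjusted p of SIRT3 was 0.272, and 0.995% of all probe sets were called. A permutation of genetic type within each series, with 100000 resamples, gave an unadjusted p = 0.0019 for SIRT3. SIRT3 was named for passing the fit of the same arrays, so that p is not independent evidence. The permutation also treated littermates as independent. Across the fits that left out 1 piglet the difference ranged between 1.05 and 1.32, and its adjusted p between 0.00329 and 0.0870.

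Markers of other cells moved beside SIRT3. The 3 fibroblast markers were higher in DU×IB piglets at an unadjusted p under 0.05, and COL1A1 passed the adjusted threshold (difference 1.21, SE 0.29, adjusted p = 0.0270). Their mean level was between 9.64 and 10.9 in DU×IB and between 7.83 and 10.3 in IB piglets. None of the 10 macrophage probe sets passed with limma, 3 passed the unadjusted threshold, and all 10 had negative differences (median -0.42), with a mean level between 5.22 and 5.77 in DU×IB and between 5.33 and 7.59 in IB piglets. Of the 4 adipocyte markers, RBP7 passed the adjusted threshold (1.58). The unadjusted one was passed by 3, with CFD (-0.44) and PNPLA2 (-0.43) in the other direction. COL1A1 and RBP7 are both in the study's list, which was chosen on these same arrays. None of 8 endothelial, 2 blood and 4 nerve probe sets passed the adjusted threshold. Of these, VWF of the endothelium (-0.50) alone passed the unadjusted one, and the nerve probe sets were all of MBP. The part of these cell types in the difference of SIRT3 was not tested. In whole muscle, fewer cells of a type and less RNA per cell cannot be told apart.

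SIRT1, the nuclear deacetylase that acts on histones and on transcription factors, had levels of 7.52, 8.22 and 8.88 (lowest, median and highest, as in the following) in DU×IB piglets, against 7.73, 8.47 and 9.05 in IB piglets. The groups overlapped widely, and the difference of -0.29 (SE 0.13, adjusted p = 0.307) did not pass. It was -0.18 in the larger series and -0.43 in the smaller one, where 5 of the 6 DU×IB piglets lay below all IB piglets. SIRT2, a largely cytoplasmic sirtuin, differed by -0.13, with a 95% interval between -0.35 and 0.10.

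HDAC1, the catalytic subunit shared by the NuRD, Sin3 and CoREST complexes, had levels of 6.09, 6.87 and 7.58 in DU×IB piglets, against 5.48, 6.63 and 7.25 in IB piglets. The groups overlapped, and the mean difference was 0.29 (SE 0.14, adjusted p = 0.353). It was 0.12 in the larger series and 0.53 in the smaller one, where 5 of the 6 DU×IB piglets lay above all IB piglets. HDAC3, the deacetylase of the NCoR complex, differed by 0.12 (SE 0.15).

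**Figure D2:**
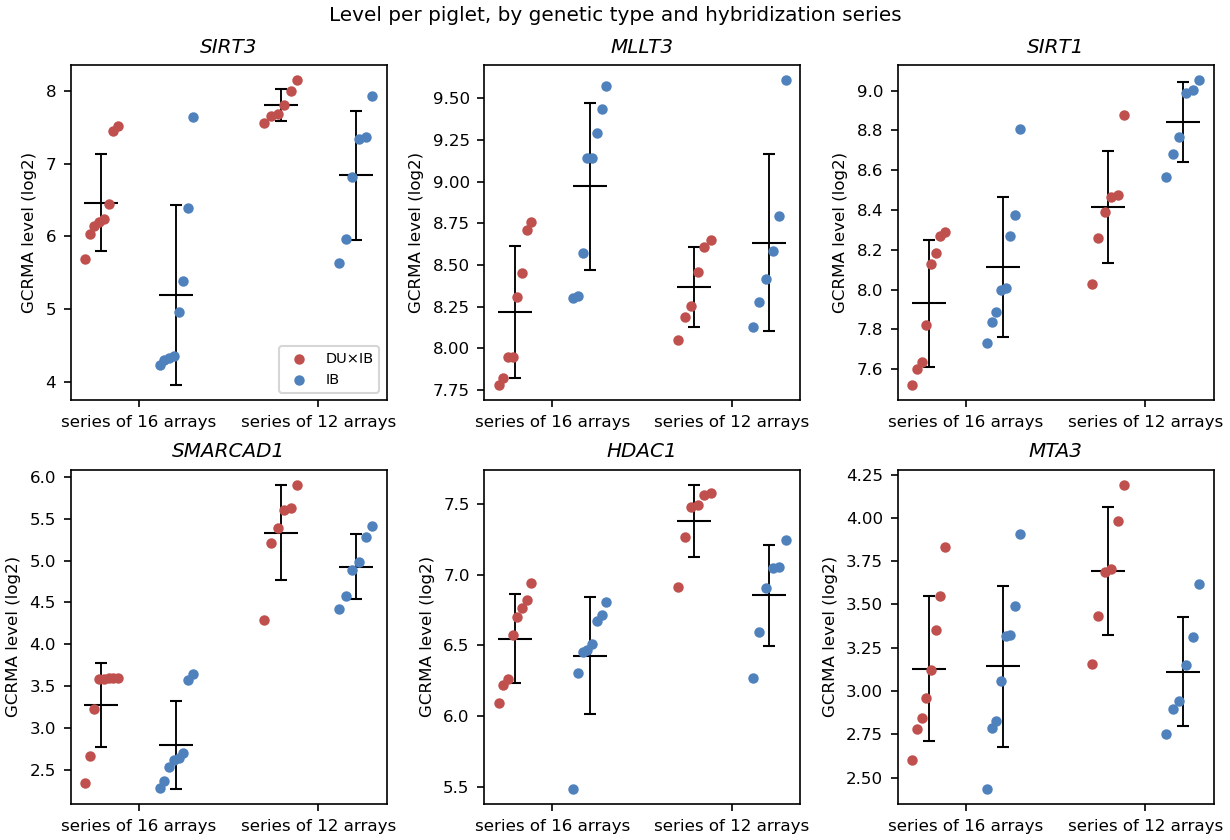
Level (GCRMA, log2, y axis) of SIRT3, MLLT3, SIRT1, SMARCAD1, HDAC1 and MTA3 in each piglet, by genetic type (DU×IB left, IB right) within the larger series (8 piglets each) and the smaller one (6 piglets each). Points are piglets, and black lines give the mean and SD. SIRT3 is higher in DU×IB piglets in both series, while MTA3 and HDAC1 are separated mainly in the smaller series.

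The members named after MLL fusion partners had negative differences, and neither passed the adjusted threshold. MLLT3 (AF9), a reader of acylated histones in the super elongation complex, had levels of 7.78, 8.28 and 8.76 in DU×IB piglets, against 8.13, 8.69 and 9.61 in IB piglets. Of the 14 DU×IB piglets, 2 lay above the IB median of their own series, and in the larger series 5 of the 8 IB piglets lay above all DU×IB piglets. The mean difference was -0.54 (SE 0.17, 1.46-fold, adjusted p = 0.108), with -0.75 in the larger series and -0.27 in the smaller one. Its adjusted p ranged between 0.0660 and 0.179 when 1 piglet was left out, and passed 0.10 in 7 of these 28 fits (without DU×IB replicate 1 or 4, or without IB replicate 1, 2, 4, 9 or 14). MLLT11 is a small protein known as an MLL fusion partner, and its levels were 5.59, 7.73 and 8.59 in DU×IB against 6.38, 7.93 and 9.35 in IB piglets. Its difference was -0.55 with a wide interval, between -1.20 and 0.09 (adjusted p = 0.467), and it was -0.98 in the larger series and 0.012 in the smaller one.

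The ATP-dependent remodellers and their partners gave 14 probe sets, of which 9 had a positive and 5 a negative difference, with a median of 0.067. None passed the adjusted threshold with limma, and SMARCAD1 alone passed the unadjusted one. SMARCAD1, a nucleosome remodeller that acts in heterochromatin maintenance and DNA repair, had levels of 2.35, 3.60 and 5.91 in DU×IB piglets, against 2.28, 3.61 and 5.41 in IB piglets. The medians over all arrays were alike, while the smaller series gave levels 2.10 higher than the larger one. Within its own series, 12 of the 14 DU×IB piglets lay above the IB median. The difference was 0.45 (SE 0.18, adjusted p = 0.256), with 0.48 in the larger series and 0.41 in the smaller one. In the larger series all values of SMARCAD1 lay below 4, and 5 of the 8 DU×IB values lay between 3.59 and 3.60.

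Of the imitation-switch ATPases, SMARCA1 differed by 0.31 (SE 0.20), and the 3 probe sets of SMARCA5, its close relative, differed by 0.10, 0.0089 and 0.10. The chromodomain helicases ranged between -0.17 for CHD1 and 0.27 for CHD9, with 0.036 and 0.14 for the probe sets of CHD4, the NuRD motor, and 0.099 for CHD6. Of the BAF and PBAF subunits, which belong to SWI/SNF remodellers, ARID1B differed by -0.10 and -0.092 on its 2 probe sets, BRD7 by -0.072, and the probe set named SMARCC1 by -0.047. The interval of the first ARID1B probe set lay between -0.41 and 0.20 and that of the second between -0.44 and 0.26.

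The 7 probe sets of deacetylase corepressor complexes had differences between -0.077 and 0.24, and none passed the unadjusted threshold. MTA3, a subunit of NuRD, had levels of 2.60, 3.39 and 4.19 in DU×IB piglets, against 2.44, 3.11 and 3.91 in IB piglets. These are low values for this array, with a mean below 4 in both genetic types. Its difference was 0.24 (SE 0.16, adjusted p = 0.571), and it was -0.013 in the larger series and 0.58 in the smaller one, where 4 of the 6 DU×IB piglets lay above all IB piglets. The interaction of genetic type with series had an unadjusted p of 0.0720 for MTA3.

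NCOR1, the scaffold of the NCoR complex, differed by 0.099, with an interval between -0.15 and 0.35, and MTA1, another NuRD subunit, by -0.041. The Sin3-associated members ARID4A, ARID4B (2 probe sets) and ING2 differed by 0.078, 0.029, 0.073 and -0.077. ING2, which reads methylated histone H3 for the Sin3 deacetylase complex, had a difference of 0.53 in the larger series and -0.89 in the smaller one. Its interaction of genetic type with series had an unadjusted p of 0.00433, the only 1 of the 47 members under 0.05 (333 of all probe sets), and with limma no probe set passed after adjustment.

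The members that write or erase histone methylation had differences between -0.079 and 0.19. MLL and MLL3, methyltransferases of the trithorax group, differed by 0.16 and -0.040, and ASH1L, which methylates a different lysine of histone H3, by -0.040 (95% interval between -0.36 and 0.28). The demethylases and their partners gave 0.19 for ARID5B, 0.16 for KDM5A, 0.016 for JMJD1C and -0.079 for UTX, also named KDM6A. ARID5B had levels of 6.99, 8.46 and 9.11 in DU×IB piglets, against 5.94, 8.16 and 9.17 in IB piglets, and its differences of 0.47 in the larger series and -0.19 in the smaller one had opposite signs. KDM5A lay at 4.39 ± 0.55 in DU×IB and 4.23 ± 0.70 in IB piglets (SD, n = 14 each).

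The Polycomb and heterochromatin members were evenly divided, with 3 positive and 3 negative differences and a median of -0.013. SUZ12, a core subunit of the Polycomb complex that methylates histone H3, had the most negative of them at -0.21 (95% interval between -0.63 and 0.20). Its levels were 5.74 ± 0.64 in DU×IB and 5.96 ± 0.82 in IB piglets (SD, n = 14 each). PCGF5 and PCGF3, subunits of the Polycomb complexes that ubiquitinate histone H2A, differed by -0.11 and -0.026, CBX6 by 0.13 and ASXL2, which belongs to a histone deubiquitinase complex, by 0.00089. CBX3, the heterochromatin protein HP1 gamma, differed by 0.082 (levels of 9.64 ± 0.70 in DU×IB and 9.56 ± 0.94 in IB piglets).

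DNMT3A, a de novo DNA methyltransferase, had levels of 8.93, 9.34 and 9.96 in DU×IB piglets, against 8.10, 9.25 and 10.4 in IB piglets. The IB piglets spread to either side of the DU×IB piglets, and the difference was 0.21 (SE 0.17, adjusted p = 0.647). ING3, a subunit of the NuA4 acetyltransferase complex, differed by 0.17 (SE 0.15), with 0.15 in the larger series and 0.19 in the smaller one. Of Mediator, the complex that links transcription factors to RNA polymerase II, MED11 differed by -0.11, MED17 by -0.077 and MED4 by 0.030 and -0.034 on its 2 probe sets.

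Differences within the 2 series often had opposite signs. Of the 47 members, 19 had the same sign in both series, against 2908 of all 5226 probe sets. Those at an unadjusted p under 0.05 in the joint fit (SIRT3, SMARCAD1, HDAC1, MLLT3 and SIRT1) had the same sign in each, which their choice by the joint fit favours. No member passed the adjusted threshold within either series alone, where 9 probe sets of the table passed in the larger series and 229 in the smaller one.

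**Figure D3:**
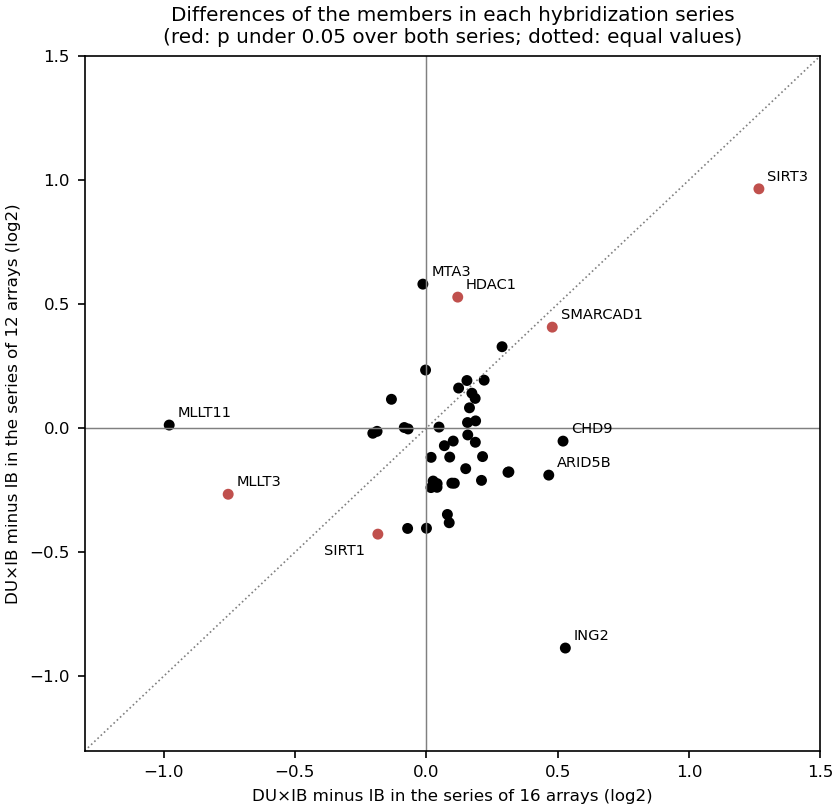
Difference between genetic types (DU×IB minus IB, log2) of each member probe set in the larger series (16 arrays, x axis) and in the smaller one (12 arrays, y axis). Points are probe sets, and 19 of 47 lie in the quadrants of equal sign. SIRT3 is positive in both (1.27 and 0.96), and ING2 has opposite signs (0.53 and -0.89).

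The series itself moved most members. Past the adjusted threshold, the smaller series gave higher levels for 33 of the 47 members (57.3% of all probe sets) and lower levels for 10 of the 47 (22.7% of all), with a median shift of 0.79 over the members and 0.57 over all probe sets. The shift was 2.10 for SMARCAD1, 1.97 for 1 SMARCA5 probe set and 1.49 for SIRT3, and it was -1.40 and -1.07 for the probe sets of CHD4, -1.01 for SIRT2 and -0.94 for MTA1. After each array was centred on its median, 36 members still passed, and the share of all probe sets after centring was not counted. Each series held as many DU×IB as IB piglets, so the shift is separate from genetic type.

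Within genetic type and series, the IB piglets were more variable than the DU×IB piglets for most members, as for most probe sets of the table. The crossbred piglets came from fewer litters, so in this spread genetic type and litter cannot be told apart. The SD was larger in IB for 39 of the 47 members (83.0%), against 76.4% of all probe sets. The median SD of the members was 0.37 in DU×IB and 0.50 in IB piglets. SIRT3 had an SD of 0.53 in DU×IB and 1.10 in IB piglets, CHD9 0.46 and 0.92, and DNMT3A 0.21 and 0.58. A single animal, IB replicate 3, gave 26.1% of the members' sum of squares in IB, and DU×IB replicate 3 gave 24.7% of it in DU×IB. Without IB replicate 3 the SD was larger in IB for 30 members (63.8%), against 62.7% of all probe sets. DU×IB replicate 3 was kept in that step, so only the spread of the IB piglets could change.

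**Figure D4:**
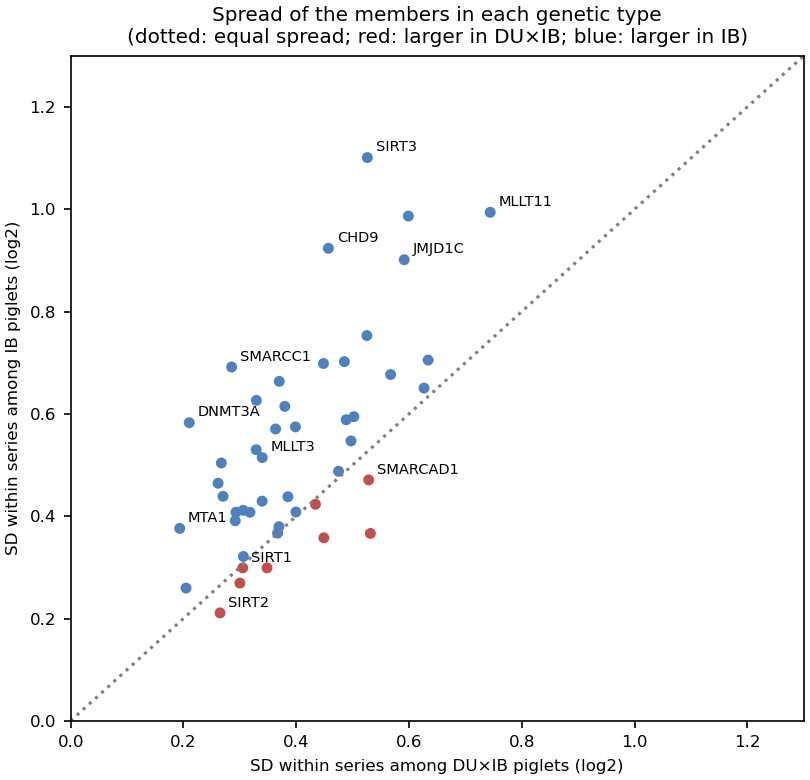
SD of each member probe set among DU×IB piglets (x axis) and among IB piglets (y axis), in log2 units, after removal of the series means (n = 14 each). Of the 47 points, 39 lie above the dotted line of equal spread, with SIRT3 at 0.53 in DU×IB and 1.10 in IB piglets.

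Pairs of members were correlated from piglet to piglet. After the means of genetic type and series were removed, 386 of 1074 pairs of members of different genes had a Benjamini-Hochberg adjusted p under 0.10 (permutation within genetic type and series, 100000 resamples, 28 piglets, adjusted over 1081 pairs), 243 positive and 143 negative. The median r was 0.098 over these pairs and 0.039 over all pairs of probe sets, and r was over 0.5 in size in 30.1% of the members' pairs, against 14.8% of all pairs. CBX3 and ARID5B had the highest correlation, r = 0.93 (rho = 0.89, adjusted p = 0.000432), and r = 0.85 without the 2 piglets farthest from the median of CBX3. JMJD1C and 1 of the ARID4B probe sets had r = 0.92 (rho = 0.90, adjusted p = 0.000432, 0.87 without the 2 farthest piglets). ASH1L ran against 1 of the SMARCA5 probe sets with r = -0.87 (rho = -0.84, adjusted p = 0.000432, -0.88 without the 2 farthest piglets). Each of these 3 pairs had a permutation p of 1e-05, the smallest that 100000 resamples can give.

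These correlations were shared with the level of the whole array. The array median correlated with CBX3 at r = 0.92 and with ASH1L at r = -0.71, and its correlation was over 0.5 in size for 57.4% of the members, against 40.4% of all probe sets. With the array median regressed out, a step chosen after the data were seen, 22 pairs of different genes had an adjusted p under 0.10 (15 positive and 7 negative). The same count was not made over all pairs of probe sets. Among the 22 was 1 of the ARID1B probe sets with BRD7 (r = 0.91 before and 0.82 after, adjusted p = 0.00541 after). The ARID1B probe sets had r = -0.12 with each other before that step. Also among the 22 was ASH1L with 1 of the SMARCA5 probe sets (r = -0.87 before and -0.70 after, adjusted p = 0.0284 after). For the other SMARCA5 probe sets the correlation with ASH1L was -0.51 and -0.45 after that step (adjusted p = 0.196 and 0.318). SUZ12 was correlated with both the same ARID1B probe set and BRD7 (r = 0.83 and 0.82 before, 0.60 and 0.64 after). The correlation of CBX3 with ARID5B was 0.58 after that step, and before it the correlation was 0.96 in the larger series and 0.39 in the smaller one.

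Among the 5 members at an unadjusted p under 0.05 for genetic type, some pairs were correlated within the groups and others were not. Of all pairs of members of different genes, 386 of 1074 had an adjusted p under 0.10. SIRT3 and MLLT3 had r = -0.63 (rho = -0.63, permutation p = 0.00207, adjusted p = 0.0143), with -0.68 in the larger series and -0.52 in the smaller one, and r = -0.54 without the 2 farthest piglets. SIRT3 and SMARCAD1 had r = 0.61 (rho = 0.64, adjusted p = 0.00733), and SMARCAD1 and MLLT3 had r = -0.59 (rho = -0.60, adjusted p = 0.00968). Without the 2 piglets farthest from the median of SMARCAD1 these were 0.68 and -0.65. SIRT1 had r = 0.13 with SIRT3 (rho = 0.26, adjusted p = 0.711), 0.35 with SMARCAD1, -0.12 with MLLT3 and 0.20 with HDAC1. HDAC1 had r = 0.55 with SMARCAD1 (adjusted p = 0.0199), 0.39 with SIRT3 and -0.28 with MLLT3. Except for HDAC1 with SMARCAD1, the adjusted p of these pairs of SIRT1 or HDAC1 was above 0.10. With the array median regressed out, r was -0.61 for SIRT3 with MLLT3 (adjusted p = 0.112) and 0.55 for SIRT3 with SMARCAD1 (adjusted p = 0.139). It was -0.61 for SMARCAD1 with MLLT3 (adjusted p = 0.0797) and 0.18 for SMARCAD1 with HDAC1 (adjusted p = 0.687).

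**Figure D5:**
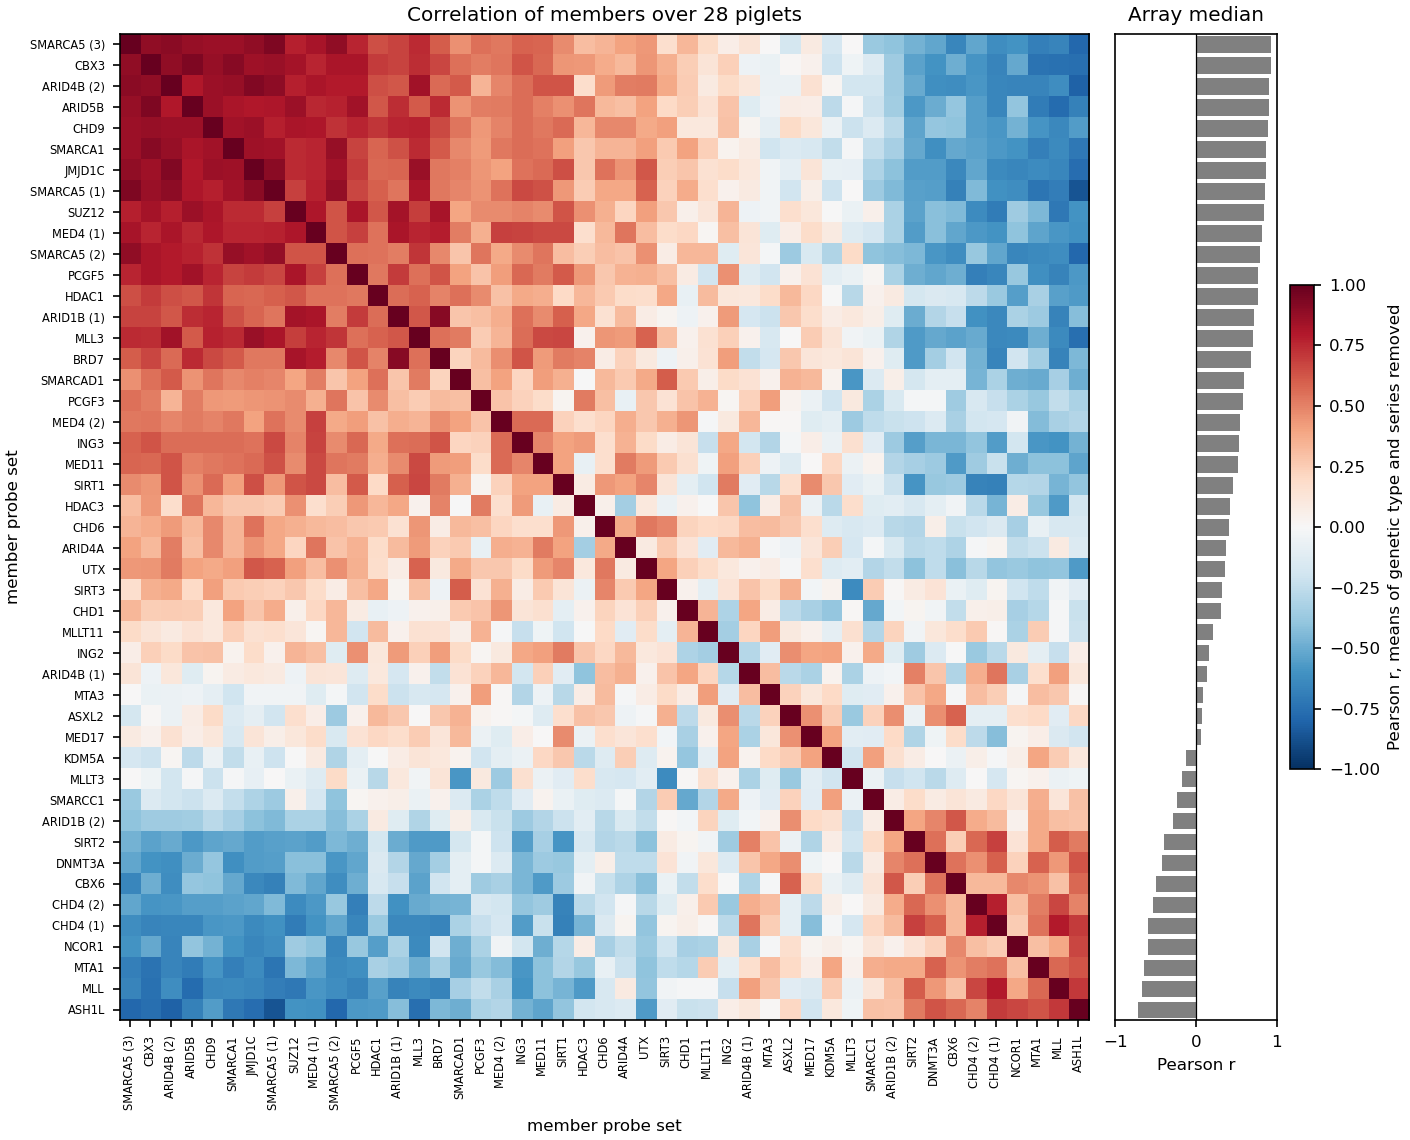
Pearson correlation between the 47 member probe sets over 28 piglets after removal of the means of genetic type and series (colour), ordered by their correlation with the array median, which the grey bars give (x axis, r). Numbers in brackets tell apart the probe sets of a gene. A block around SMARCA5, CBX3 and ARID5B is opposed to ASH1L, MLL and MTA1.

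Different probe sets of a gene were not always alike. The 3 probe sets of SMARCA5 had r between 0.88 and 0.93, those of CHD4 0.77 and those of MED4 0.69 over the 28 piglets. The 2 probe sets of ARID4B had r = 0.12 and those of ARID1B r = -0.12 (adjusted p = 0.755 and 0.727). For these genes the correlations depend on the probe set read, while the difference between genetic types passed on neither probe set. The ARID4B probe set with a difference of 0.029 had low levels, with means of 4.31 in DU×IB and 4.28 in IB piglets.

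The study also asked which factors change their correlation with its differing genes between genetic types, by regulatory impact factors. RIF1 weights a change in correlation by the level and difference of each listed gene, RIF2 sets the listed genes' level times correlation in DU×IB against IB, and both are given here as z-scores over 310 factors. Both put DU×IB before IB here, and in the study's orientation the scores of MTA3 and HDAC1 have the opposite sign. Since the list was chosen on these arrays, the scores are a description. Of 27 members among the factors, MTA3 and HDAC1 had a score past 2 in size (28 of all 310 factors did). MTA3 had z-scores of 3.21 (RIF1) and 2.10 (RIF2), with a mean squared correlation with the 271 listed probe sets of 0.23 in DU×IB and 0.06 in IB piglets. HDAC1 had a RIF2 of 2.09, with 0.36 in DU×IB and 0.19 in IB piglets. After the series mean of each probe set was subtracted, MTA3 had 1.14 and 1.54 and HDAC1 had 1.66, so no member was past 2.

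Related genes outside the rule gave no call with limma, although the study's list, chosen on these same arrays, holds PHC3 and CD38 among them. Of 37 probe sets of 32 other chromatin genes, none passed the adjusted threshold with limma, and the median difference was 0.05. The unadjusted threshold was passed by 3 of them (8.1%, against 13.8% of all probe sets). HELLS, a remodeller needed for DNA methylation, differed by 0.48 (SE 0.18, adjusted p = 0.182), PHF6 by 0.41 (adjusted p = 0.309), and PHC3, a Polycomb subunit, by -0.34 (adjusted p = 0.201). Of 20 probe sets of 16 genes for NAD supply or for known substrates of SIRT1 or SIRT3, none passed the adjusted threshold with limma. The 2 that passed the unadjusted one (10%) were CD38 and an LPIN1 probe set (-0.48, with -0.16 on the other). Differences were positive for 6 and negative for 14, with a median of -0.10. CD38, which degrades NAD, differed by -0.42 (adjusted p = 0.201), NAMPT, which makes its precursor, by -0.41 (adjusted p = 0.406), and PPARGC1A, the mitochondrial coactivator that SIRT1 deacetylates, by -0.25 (adjusted p = 0.838).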

How the data were processed

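The deposited values are log2 levels per probe set, which the authors obtained by GCRMA from images read with GCOS (no versions are given in the sources used here), and which they limited to probe sets that varied between arrays. Each of the 28 columns is 1 piglet, and 0 value columns were without a sample. The members and lists were chosen with earlier results of these data known. Probe sets were named by the study's tables, then by the annotation of the array. The labels do not give the hybridization series. It was recovered from 10 spike-in probe sets, whose mean per array was between 8.93 and 9.68 in 16 arrays and between 6.19 and 7.01 in 12. Differences (DU×IB minus IB) were fitted with limma 3.58.1 (R 4.3.3) with genetic type and series as terms, two-sided, with Benjamini-Hochberg adjustment over 5226 probe sets and a threshold of 0.10. Single members and correlations were also tested by permutation within series (Python 3.11.15, 100000 resamples). The alternatives were other normalizations, array weights, no series term, each series alone, a residual component, filters on probe sets and leaving out each piglet. The fit was tried on simulated data with independent noise for each probe set and array. That setting leaves out the correlation between probe sets and between littermates. Small added differences were recovered less often than large ones. The number of arrays limits the precision. Members named in full were those past the threshold with or without the series term, those the study names, in each role the member of lowest p and of highest mean level with all probe sets of its gene, and those of the largest and most negative difference. The gene groups and correlated pairs beyond these were named after their values were seen.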

Additional observations from a re-analysis of the deposited data

How the results depend on the processing

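SIRT3 passed the adjusted p of 0.10 in every fit of limma except that with no series term and those of each series alone. All probe sets and members called numbered 52 and 0 with no series term, 276 and 3 with array weights (MLLT3 and SMARCAD1 as well), 289 and 3 with a covariate for the main residual component (SMARCA1 and MLLT3 as well), 9 and 0 with the 16 arrays alone, and 229 and 0 with the 12 alone. At an adjusted p of 0.05 they were 80 and 1. Leaving out 1 piglet gave between 103 and 221 probe sets (221 without IB replicate 4) and 1 or 2 members. The share of calls higher in DU×IB was 74.5%, and it was 88.9% with the 16 arrays alone and 54.6% with the 12 alone. The cause was not tested.

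Among the members named in full, direction turned only where the difference did not pass (of all 47, 19 had the same sign in both series). It turned for MED11 with array weights (0.030). With the 16 arrays alone it turned for ARID1B (0.080 and 0.018), 1 MED4 probe set (0.107), MTA3 (-0.013) and ASH1L (0.018), and with the 12 alone for the other MED4 probe set (-0.211), CBX3 (-0.057), MLLT11 (0.012) and ARID5B (-0.189). Leaving out 1 piglet gave ranges across 0 for MED4 (-0.046 to 0.077 and -0.107 to 0.034), CBX3 (-0.062 to 0.162) and ASH1L (-0.096 to 0.032). No member had a regulatory impact factor past 2 after the series mean was subtracted (0, against 2).

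The replicate number as a block in place of the series gave 145 probe sets and 1 member (SIRT3, adjusted p = 0.0473), with no change in any named member's call. Same-numbered piglets mostly did not vary together, with r over 0.1 in 2 of 14 pairs and a range between -0.35 and 0.54. The highest r was that of the piglets numbered 3. Most pairs thus gave no sign of pairing by number, and shared handling of same-numbered arrays was not tested. A fit of the replicate block with the series could not be made, since the series is nested in the number.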
